A study of Homo sapiens with 12 samples.

Results

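The nuclear complex I subunits are 36 genes of the NDUF family, taken by name from a list of symbols. All 36 symbols were found among the 60649 genes of each deposited count table, and all 36 were among the 16683 genes that passed the filter on low counts. RNA was sequenced from spheroids (clusters of cells grown in suspension) of SBC3, an established human line of small cell lung cancer. The 12 libraries fall into 4 groups of 3: control, teriflunomide, lurbinectedin, and the combination of both drugs. Teriflunomide inhibits dihydroorotate dehydrogenase, a pyrimidine synthesis enzyme of the inner mitochondrial membrane, and lurbinectedin binds the DNA minor groove and stalls transcribing RNA polymerase II. Doses and exposure times are not in the labels, and the labels do not say whether the 3 libraries of a group came from separate cultures, so p-values measure the spread between these libraries, which may be technical.

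Complex I oxidises NADH, passes the electrons along a chain of iron-sulfur clusters to ubiquinone and pumps protons across the inner mitochondrial membrane. Its matrix arm consists of the N module, where NADH is oxidised, and the Q module, where ubiquinone is reduced; its membrane arm has a proximal and a distal part, built from subunits encoded in the mitochondrial genome and accessory subunits encoded in the nucleus. Dihydroorotate dehydrogenase also hands its electrons to ubiquinone. The 36 members were grouped as 10 N module, 5 Q module, 9 proximal and 12 distal membrane arm genes, and 6 of them (NDUFV1, NDUFV2, NDUFS1, NDUFS3, NDUFS7 and NDUFS8) are catalytic core subunits.

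Levels are counts per 1000000 (CPM) after TMM scaling, with no correction for gene length, so they are compared between libraries and not between genes. A gene is called higher or lower where edgeR's quasi-likelihood test gave a Benjamini-Hochberg adjusted p under 0.05 over all 16683 genes, and fold changes are log2 with their standard error (SE). In bulk RNA a lower share of cells expressing a gene and less RNA per cell cannot be told apart.

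Total counts per library ran from 23206414 to 33222162, and replicates of a group correlated at 0.977 to 0.995 on the log scale. The mitochondrial genome took 6.26% to 7.17% of the counts in control, 13.8% to 17.1% in lurbinectedin, and 13.1% to 24.9% in combination libraries. Teriflunomide replicates 1 and 2 held 8.42% and 8.43%, whereas teriflunomide replicate 3 held 22.6% and combination replicate 2 held 24.9%. Teriflunomide replicate 3 and combination replicate 2 thus stand apart from their groups. The main counts of calls that rest on them are given with and without 1 or both. Of 10 markers of small cell lung cancer and epithelium, 6 were under 1 CPM in all 12 libraries. Among them were INSM1, NCAM1 and EPCAM, with INSM1 at 0 throughout. YAP1 (236 to 259 CPM), SYP (16 to 17.5) and NEUROD1 (3.67 to 4.29) were present in control. The 10 markers summed to 498 to 517 CPM in control, so these 3 are not all that were expressed there. The sum was 560 to 607 CPM under teriflunomide, 504 to 528 under lurbinectedin and 518 to 558 under both drugs. This steady sum hides changes in both directions. Of the 10 markers 5 could be tested. With lurbinectedin 3 were higher and 2 lower (log2 fold changes -1.92 to 2.74), against 36% and 35.7% of all genes. With the combination 3 were higher and 2 lower (-1.34 to 2.55), against 34.1% and 34.4%. Of 6 markers of fibroblasts, leukocytes and endothelium, 4 were under 1 CPM throughout, and their sum, nearly all of it COL1A1, was 261 to 274 in control, 234 to 252 under teriflunomide, 97.6 to 115 under lurbinectedin and 94.3 to 111 under both drugs. The 3 of these that could be tested were lower with lurbinectedin and with the combination; their part in the changes below was not tested.

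Promoters of 32 members were found in the RefSeq table (GRCh38.p14, 250 bases before to 50 after each transcription start), 39 windows in all. They were searched on both strands for letters bound by 4 factors known to act on respiratory chain genes. GCGCANGCG (NRF1) was in 10 of the 39 windows, or 25.6%, against 12.53% of 16332 promoters of tested genes and 7.52% of all 35116 promoters. AAGATGGCG (YY1) was in 6, or 15.4%, against 3.29% and 1.75%. CCGGAAG (ETS factors) was in 5, or 12.8%, against 16.45% and 10.26%, and TCAAGGTCA (estrogen-related receptors) was in 0, against 0.19% and 0.35%. No matches of different motifs overlapped within a member promoter. All 6 YY1 matches (NDUFA6, NDUFA7, NDUFA9, NDUFB8, NDUFS4 and NDUFS7) were on the sense strand and began 11 to 26 bases after the start. The windows below run from 90 bases before to 30 after the start on the gene's strand, with motif letters in capitals. The first 5 hold the YY1 letters, and NDUFA9 and NDUFS7 also the NRF1 letters, NDUFS6 and NDUFAB1 hold NRF1 letters alone, and NDUFA2, NDUFB11 and NDUFB3 hold no match; they are shown because these genes include the clearest rises and falls described next.
NDUFS4 (chr5:53560549-53560668, plus strand): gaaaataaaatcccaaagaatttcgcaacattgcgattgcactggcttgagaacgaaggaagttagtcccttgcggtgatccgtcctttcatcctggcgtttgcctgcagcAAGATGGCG
NDUFA9 (chr12:4649024-4649143, plus strand): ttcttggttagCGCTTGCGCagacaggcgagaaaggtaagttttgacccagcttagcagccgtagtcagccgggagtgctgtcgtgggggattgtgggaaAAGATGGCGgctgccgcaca
NDUFS7 (chr19:1383817-1383936, plus strand): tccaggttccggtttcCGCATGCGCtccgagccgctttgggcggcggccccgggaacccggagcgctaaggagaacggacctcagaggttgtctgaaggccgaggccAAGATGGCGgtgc
NDUFB8 (chr10:100529842-100529961, minus strand): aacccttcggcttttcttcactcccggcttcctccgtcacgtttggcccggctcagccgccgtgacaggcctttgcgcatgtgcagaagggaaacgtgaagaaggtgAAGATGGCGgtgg
NDUFA7 (chr19:8321346-8321465, minus strand): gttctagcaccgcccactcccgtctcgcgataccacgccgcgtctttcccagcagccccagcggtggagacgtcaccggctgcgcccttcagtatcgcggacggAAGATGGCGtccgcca
NDUFS6 (chr5:1801317-1801436, plus strand): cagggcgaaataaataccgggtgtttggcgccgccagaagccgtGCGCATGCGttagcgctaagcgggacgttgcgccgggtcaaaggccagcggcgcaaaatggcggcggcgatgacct
NDUFAB1 (chr16:23596287-23596406, minus strand): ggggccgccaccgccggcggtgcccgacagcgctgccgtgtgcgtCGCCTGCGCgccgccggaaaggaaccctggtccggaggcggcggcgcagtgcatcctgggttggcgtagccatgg
NDUFA2 (chr5:140647601-140647720, minus strand): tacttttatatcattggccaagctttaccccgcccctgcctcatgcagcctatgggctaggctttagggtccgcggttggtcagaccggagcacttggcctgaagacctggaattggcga
NDUFB11 (chrX:47144673-47144792, minus strand): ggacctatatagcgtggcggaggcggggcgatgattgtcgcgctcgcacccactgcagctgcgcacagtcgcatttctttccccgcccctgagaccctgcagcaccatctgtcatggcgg
NDUFB3 (chr2:201071911-201072030, plus strand): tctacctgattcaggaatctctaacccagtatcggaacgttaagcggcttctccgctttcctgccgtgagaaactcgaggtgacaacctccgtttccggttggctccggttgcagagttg
The genes with YY1 letters moved in both directions: in these 6, lurbinectedin against control gave -2.52 for NDUFS4, -1.20 for NDUFA9, 0.02 for NDUFS7, 0.08 for NDUFB8, 0.80 for NDUFA6 and 1.47 for NDUFA7 (log2 fold change). A match is a string of letters and not a measured binding site.

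Lurbinectedin split the complex I genes. Against control, 15 of 36 members were higher and 7 lower, with 14 not called, and fold changes ran from -2.52 to 1.90 on the log2 scale. Over all genes tested, 36% were called higher and 35.7% lower, so the members' share of rises is near the background and their share of falls is below it. The median member fold change was 0.09, against 0.05 over all genes. The excess of rises depends on the scaling: by library size alone, 10 members were higher and 9 lower, against 25.9% and 40.2% of all genes, and 20 of 36 fold changes were below 0. NDUFV1, NDUFV2, NDUFS8, NDUFA11 and NDUFB10 were then no longer called, and NDUFS1 and NDUFB1 were called lower. The summed level of the 36 genes was 1614, 1634 and 1578 CPM in control, 2065, 1882 and 1913 CPM under lurbinectedin, 1657, 1606 and 1546 CPM under teriflunomide and 1617, 1733 and 1648 CPM under both drugs. After TMM scaling only the lurbinectedin libraries lay above every other library in this sum. As a share of all counts they overlapped control: 0.1836%, 0.1758% and 0.1826% against 0.1786%, 0.1748% and 0.1721%. As a share of nuclear counts they were again highest, at 0.2205%, 0.212% and 0.2118%. The highest other library by that share was combination replicate 3 at 0.2034%.

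**Figure D1:**
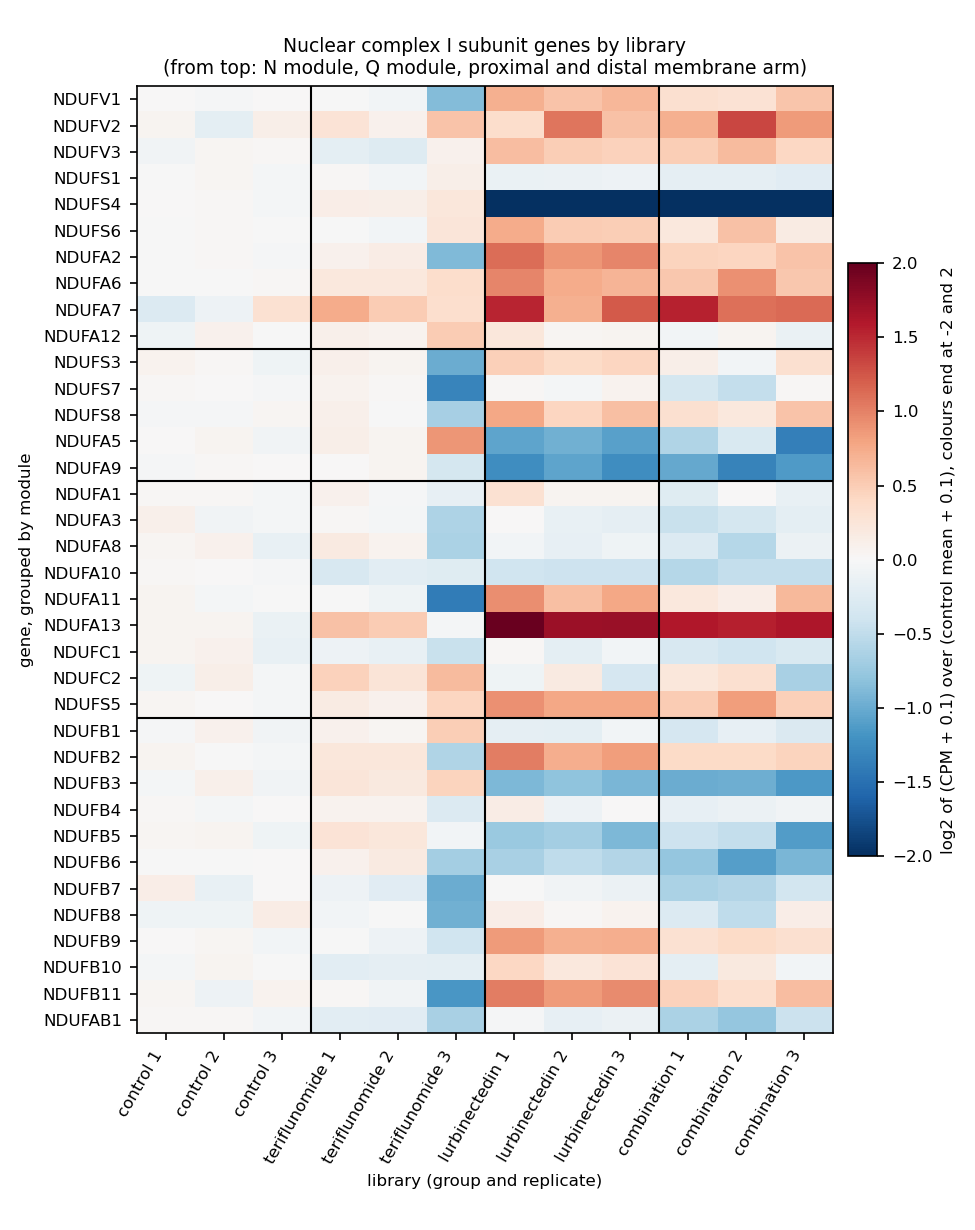
Level of each of the 36 genes (rows, grouped by module) in each of the 12 libraries (columns), as log2 of (CPM + 0.1) over (control mean + 0.1), with colours ending at -2 and 2. NDUFS4 is deep blue in all 6 lurbinectedin and combination libraries, while most N module genes are red there, and teriflunomide replicate 3 differs from teriflunomide replicates 1 and 2.

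Most N module genes rose with lurbinectedin. Of 10, 7 were higher and 1 lower, against 36% and 35.7% of all genes, and the median log2 fold change was 0.62. NDUFV1, the flavin-bearing subunit that binds NADH, stood at 109, 106 and 108 CPM in control, 106, 104 and 58.6 under teriflunomide, 176, 160 and 171 under lurbinectedin and 134, 132 and 158 under both drugs. All lurbinectedin libraries were above all control libraries, by 0.65 (SE 0.17, adjusted p = 0.0039, edgeR). NDUFV2, an iron-sulfur core subunit, stood at 0.972, 0.802 and 1.02 CPM in control, 1.14, 0.988 and 1.43 under teriflunomide, 1.21, 2.07 and 1.45 under lurbinectedin and 1.59, 2.49 and 1.75 under both drugs. Its groups do not overlap between control and lurbinectedin, and it rose by 0.77 (SE 0.26, adjusted p = 0.018, edgeR), but only 24 to 59 reads per library lie behind it. NDUFS1, the iron-sulfur subunit that carries electrons onward from the flavin, stood at 195, 202 and 191 CPM in control, 198, 189 and 212 under teriflunomide, 180, 181 and 182 under lurbinectedin and 173, 173 and 167 under both drugs. Its lurbinectedin libraries lay just under control, at -0.12 (SE 0.08, adjusted p = 0.205, edgeR).

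NDUFS4 went the other way, and by the widest margin of the 36 genes. This accessory subunit helps hold the N module in place, and its inherited loss causes Leigh syndrome. It lies on chromosome 5 (hg38, chr5:53560633-53683338, plus strand) and spans 122.706 kb. Its level was 20.8, 20.9 and 20.1 CPM in control, 22.6, 22.4 and 24.2 under teriflunomide, 3.10, 3.64 and 4.0 under lurbinectedin and 4.56, 3.16 and 3.89 under both drugs. The lurbinectedin and combination libraries sit far below the other 6 and overlap each other, with log2 fold changes against control of -2.52 (SE 0.15, adjusted p = 3.18e-09) and -2.41 (SE 0.14, adjusted p = 5.43e-09, both edgeR). NDUFA2, an accessory N module subunit with a thioredoxin-like fold, rose instead. It stood at 28.9, 29.6 and 28.7 CPM in control, 30.9, 32.1 and 15.7 under teriflunomide, 63.0, 53.7 and 57.4 under lurbinectedin and 39.6, 39.2 and 43.0 under both drugs. It rose by 1.0 with lurbinectedin (SE 0.20, adjusted p = 0.000456, edgeR). NDUFA6, NDUFS6 and NDUFV3, further accessory subunits of this module, rose by 0.80, 0.59 and 0.53, and NDUFA12 was not called (0.11). NDUFA7 gave 1.47 from only 5 to 23 reads per library.

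In the Q module 1 of 5 genes rose and 2 fell with lurbinectedin, against 36% and 35.7% of all genes. NDUFS8, an iron-sulfur subunit on the path to ubiquinone, stood at 42.4, 42.5 and 44.3 CPM in control, 46.1, 42.7 and 27.2 under teriflunomide, 74.0, 57.9 and 65.5 under lurbinectedin and 53.9, 49.9 and 63.7 under both drugs. It rose by 0.61 with lurbinectedin (SE 0.17, adjusted p = 0.00543, edgeR), with no overlap between those groups. NDUFS3, a core subunit, stood at 40.1, 38.8 and 36.1 CPM in control, 41.0, 40.03 and 19.2 under teriflunomide, 53.6, 49.96 and 51.9 under lurbinectedin and 41.6, 36.7 and 47.8 under both drugs. Its lurbinectedin libraries were above all control libraries but the difference of 0.44 was not called (SE 0.21, adjusted p = 0.0819, edgeR); without teriflunomide replicate 3 it was called. NDUFS7, which holds the last iron-sulfur cluster before ubiquinone, stood at 17.9, 17.7 and 17.3 CPM in control, 18.5, 17.9 and 7.02 under teriflunomide, 18.0, 17.1 and 18.6 under lurbinectedin and 13.8, 12.6 and 18.0 under both drugs. Control and lurbinectedin overlap (0.02, adjusted p = 0.943, edgeR).

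Both Q module genes that fell are accessory subunits. NDUFA5 (chr7:123536997-123557904, minus strand) stood at 57.9, 59.6 and 55.0 CPM in control, 62.5, 59.9 and 106 under teriflunomide, 27.7, 29.6 and 27.1 under lurbinectedin and 37.9, 46.5 and 22.1 under both drugs. It fell by 1.03 with lurbinectedin (SE 0.24, adjusted p = 0.00174, edgeR). NDUFA9, which binds NADPH at the junction of the arms, stood at 10.8, 11.2 and 11.1 CPM in control, 11.1, 11.5 and 8.65 under teriflunomide, 4.60, 5.24 and 4.62 under lurbinectedin and 5.39, 4.30 and 5.01 under both drugs. All 6 libraries with lurbinectedin, alone or combined, lay below the other 6, and the gene fell by 1.20 with lurbinectedin alone (SE 0.15, adjusted p = 4.96e-06, edgeR).

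In the membrane arm the calls went both ways. Over all genes 36% were called higher and 35.7% lower. Of 9 proximal genes 3 rose (NDUFA13, NDUFS5 and NDUFA11) and 1 fell (NDUFA10), with a median log2 fold change of -0.07. Of 12 distal genes 4 rose (NDUFB11, NDUFB2, NDUFB9 and NDUFB10) and 3 fell (NDUFB3, NDUFB5 and NDUFB6), with a median of -0.02. NDUFA13, also known as GRIM-19, stood at 1.07, 1.07 and 0.926 CPM in control, 1.58, 1.5 and 0.988 under teriflunomide, 4.31, 3.56 and 3.60 under lurbinectedin and 3.29, 3.20 and 3.35 under both drugs, and had the largest rise of the 36 (1.90, SE 0.20, adjusted p = 9.45e-07, edgeR). NDUFB11, an X-linked accessory subunit (chrX:47142216-47145038, minus strand), stood at 42.1, 38.1 and 42.8 CPM in control, 41.5, 39.2 and 18.2 under teriflunomide, 83.6, 74.4 and 79.4 under lurbinectedin and 56.7, 51.9 and 62.9 under both drugs. Every lurbinectedin library of both genes was above every control and every combination library, and NDUFB11 rose by 0.95 (SE 0.22, adjusted p = 0.00158, edgeR). NDUFB3 (chr2:201071433-201085750, plus strand) stood at 34.7, 38.5 and 33.9 CPM in control, 42.0, 40.6 and 48.6 under teriflunomide, 19.1, 20.4 and 18.9 under lurbinectedin and 17.9, 18.0 and 16 under both drugs. Its teriflunomide libraries were above control and its lurbinectedin libraries below, by -0.87 (SE 0.11, adjusted p = 8.46e-06, edgeR).

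The size of some of these changes is uncertain because reads may be shared between genes. In 8 members over 50% of the coding bases lie in exons of another annotated gene: NDUFA7 (100%), NDUFV2 (91.7%), NDUFC2 (86.8%), NDUFA9 (85.1%), NDUFB8 (83.9%), NDUFA13 (70.0%) and NDUFB5 (61.1%), all chiefly on the same strand, and NDUFS7 (50.7%) on the opposite strand. How the counting treated such reads, and whether it used strand, is not given in the sources used here. Pseudogenes named after 18 of the members, 55 in all, are also annotated, 12 each for NDUFA5 and NDUFB4. Without those 8 genes, 12 of 28 members were higher (42.9%) and 5 lower (17.9%) with lurbinectedin, against 36% and 35.7% of all genes. The largest rises were then NDUFA2, NDUFB11 and NDUFB2 (1.0, 0.95 and 0.87) and the largest falls NDUFS4, NDUFA5 and NDUFB3.

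The combination left fewer rises and more falls against control. Of the 36 members 9 were higher and 11 lower, against 34.1% and 34.4% of all genes, and the median was -0.09 against 0.04 over all genes. All 9 that were higher were also higher with lurbinectedin alone, and 7 of the 11 that were lower were also lower with it; both contrasts share the control libraries. The other 4 lower genes (NDUFAB1, NDUFB7, NDUFC1 and NDUFS1) were not called with lurbinectedin, and 6 genes called higher with lurbinectedin (NDUFA11, NDUFB10, NDUFB11, NDUFB2, NDUFS8 and NDUFV1) were not called with the combination. The N module had 6 higher and 2 lower of 10, the Q module 0 and 2 of 5, the proximal arm 2 and 2 of 9 and the distal arm 1 and 5 of 12. The largest called rises were NDUFA13 (1.68), NDUFA7 (1.57) and NDUFV2 (1.05), all among the genes with shared exons, and the largest falls NDUFS4 (-2.41), NDUFA9 (-1.17) and NDUFB3 (-1.04). These counts depend on 1 library of another group: without teriflunomide replicate 3, which enters the shared estimate of spread, 14 were higher and 14 lower, against 37.8% and 37.1% of all genes. With combination replicate 2 also left out, 14 and 13 were called, against 37.2% and 37%. The members' shares of calls without these libraries are thus near the background.

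**Figure D2:**
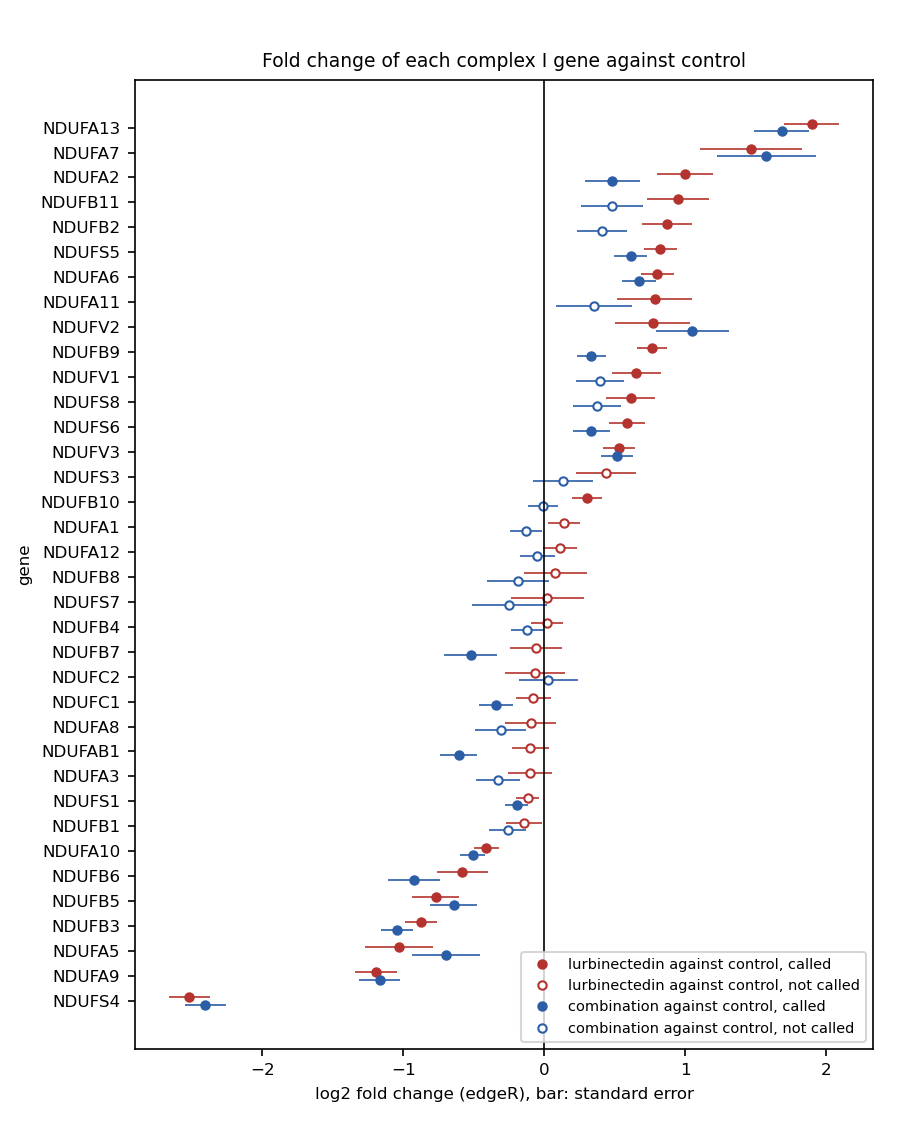
Log2 fold change against control of the 36 genes with lurbinectedin (red) and the combination (blue), ordered by the lurbinectedin value; bars are standard errors, filled points are called (adjusted p under 0.05) and open points are not. NDUFS4 is lowest at -2.52 and -2.41, and most genes on the upper part of the plot have a blue point to the left of the red one.

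Set against lurbinectedin alone, the combination called 0 of 36 members in either direction, and 0% of all genes higher and 0% lower. At an unadjusted p under 0.05 there were 7 members, against 15.6% of all genes, and the smallest adjusted p among members was 0.151. DESeq2 called 2 members lower (NDUFAB1 and NDUFB9), against 0.977% of all genes. The direction leaned 1 way: 29 of 36 fold changes were below 0, with a median of -0.22 against 0.03 over all genes. The lean was deepest in the distal arm (11 of 12 below 0, median -0.33) and least in the N module (7 of 10, median -0.11). In 17 members all combination libraries lay below all lurbinectedin libraries, against 12.6% of all genes, and in 0 did they all lie above, against 11.1%. Without teriflunomide replicate 3, 11 of 36 members were called lower, against 5.80% of all genes, and 11 were also called lower, against 10.1%, with combination replicate 2 left out as well; 0 were called higher in both cases.

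The 3 members with the smallest p in this contrast are described next; chosen for their p, they lie further from 0 than the median member. NDUFB9, a distal subunit of the LYR family, stood at 100, 102 and 95.8 CPM in control, 98.9, 92.5 and 75.1 under teriflunomide, 179, 163 and 163 under lurbinectedin and 122, 129 and 123 under both drugs. The combination libraries lay between the control and the lurbinectedin libraries with no overlap (-0.43 against lurbinectedin, SE 0.10, adjusted p = 0.151, edgeR). NDUFAB1, the mitochondrial acyl carrier protein (chr16:23581014-23596316, minus strand), stood at 64.7, 64.7 and 60.8 CPM in control, 54.8, 54.4 and 40.3 under teriflunomide, 62.7, 56.5 and 58.5 under lurbinectedin and 41.0, 36.9 and 46.8 under both drugs. Its combination libraries lay below every control and lurbinectedin library, by 0.61 against control (adjusted p = 0.00094) and by 0.51 against lurbinectedin (SE 0.13, adjusted p = 0.151, edgeR). NDUFB10 stood at 64.3, 68.9 and 65.9 CPM in control, 57.2, 58.3 and 58.0 under teriflunomide, 88.5, 77.1 and 80.1 under lurbinectedin and 58.2, 75.7 and 64.0 under both drugs, so its combination libraries spread around the control level (-0.31 against lurbinectedin, SE 0.11, adjusted p = 0.214, edgeR).

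**Figure D3:**
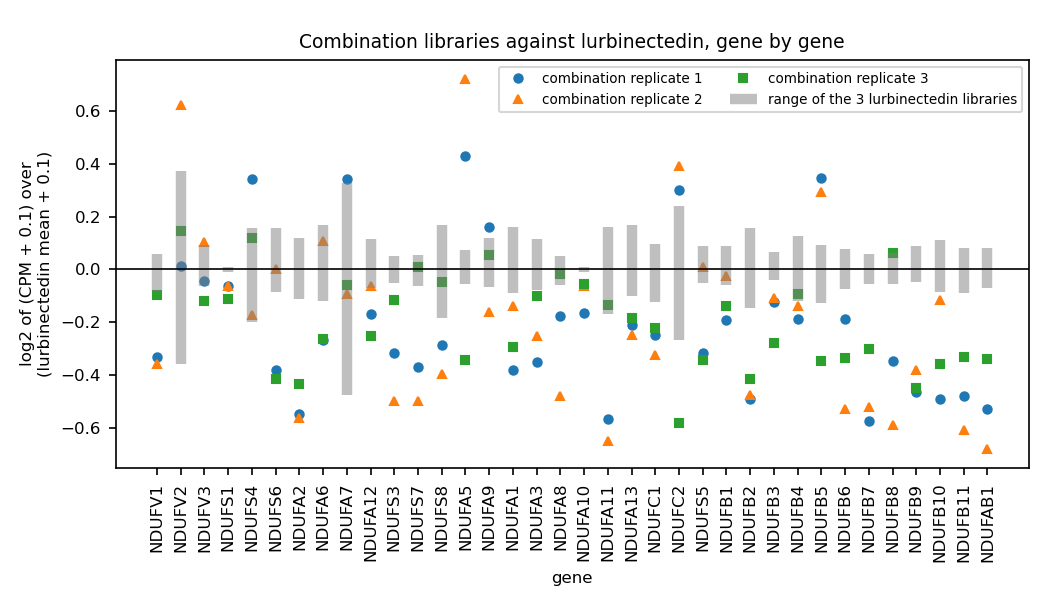
Each combination library (blue circle, orange triangle, green square for replicates 1, 2 and 3) against the lurbinectedin mean for the 36 genes, as log2 of (CPM + 0.1) over (lurbinectedin mean + 0.1); grey bars give the range of the 3 lurbinectedin libraries. Most points lie below 0, and in 17 genes all 3 lie below the grey bar.

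Whether the drugs together did more or less than the sum of their separate effects was asked with an interaction term. It called 0 of 36 members, against 0.0360% of all genes higher and 0.222% lower; 5 members had an unadjusted p under 0.05, against 10.3% of all genes, and DESeq2 also called 0, against 1.55%. Of the 36 values 30 were below 0 (median -0.11 against 0.02 over all genes), but this count depends on the scaling and on single libraries. By library size alone 16 of 36 were below 0, with a median of 0.02 against 0.16 over all genes, and without teriflunomide replicate 1 there were 21. The members' median thus lay below that over all genes under either scaling, while the value over all genes moved as well. The smallest p-values were those of NDUFB3 (-0.47, adjusted p = 0.328), NDUFS5 (-0.45) and NDUFA6 (-0.39). NDUFS5, a proximal arm subunit, stood at 143, 140 and 135 CPM in control, 156, 148 and 188 under teriflunomide, 261, 238 and 239 under lurbinectedin and 198, 248 and 194 under both drugs. NDUFA6 stood at 50.9, 50.9 and 52.0, at 59.2, 59.6 and 65.4, at 100, 85.5 and 82.3 and at 74.2, 96.3 and 74.4 CPM in the same order of groups. In both genes teriflunomide alone lay above control. The combination overlapped lurbinectedin only through combination replicate 2, and combination replicates 1 and 3 lay below every lurbinectedin library. Without teriflunomide replicate 3 the term called 2 members lower (NDUFA2 and NDUFB2), against 2.16% of all genes, and without combination replicate 2 as well it called 6, against 4.97%.

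Teriflunomide alone called 0 of 36 members against control, where 3.88% of all genes were higher and 2.13% lower. There were 5 members with an unadjusted p under 0.05, against 24.8% of all genes, and DESeq2 called NDUFA10 alone lower, against 4.98%; the members' shares lie below the background. The members' median was -0.09 against 0.03 over all genes, and this sign rests on 1 library: without teriflunomide replicate 3 the median was 0.05 and NDUFA10 was called lower, against 3.60% of all genes. In 7 members all teriflunomide libraries lay above control and in 3 all lay below, against 20.1% and 16.7% of all genes. NDUFA10, a membrane arm subunit with a fold like that of nucleoside kinases, stood at 72.2, 71.7 and 69.8 CPM in control, 56.7, 61.7 and 60.1 under teriflunomide, 53.8, 53.5 and 53.2 under lurbinectedin and 47.7, 51.1 and 51.4 under both drugs. All treated libraries were below all control libraries (teriflunomide -0.26, SE 0.09, adjusted p = 0.0961, edgeR), and it fell with lurbinectedin by 0.41 (adjusted p = 0.000843) and with the combination by 0.51 (adjusted p = 0.000168). The next smallest p-values for teriflunomide were those of NDUFB3 (0.30, adjusted p = 0.123) and NDUFAB1 (-0.35, adjusted p = 0.124), whose values are given above.

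Teriflunomide replicate 3 departed from its group along the GC content of the transcripts. In 22 of 36 members it lay below both other teriflunomide libraries and in 12 above both. Across the 36 genes its difference from replicates 1 and 2 had a Spearman correlation of -0.575 with transcript GC content, and across 16466 nuclear genes -0.621; genes share the same libraries, so no p is given. The 12 members of lowest GC content had a median difference of 0.12 and the 12 of highest -0.76 (log2 CPM). NDUFA5, the member of lowest GC content (35.0%), was at 106 CPM there against 62.5 and 59.9, while NDUFS7 and NDUFA11 were at 7.02 against 18.5 and 17.9 and at 2.93 against 7.86 and 7.43. Combination replicate 2 leaned the same way, with a correlation of -0.351.

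**Figure D4:**
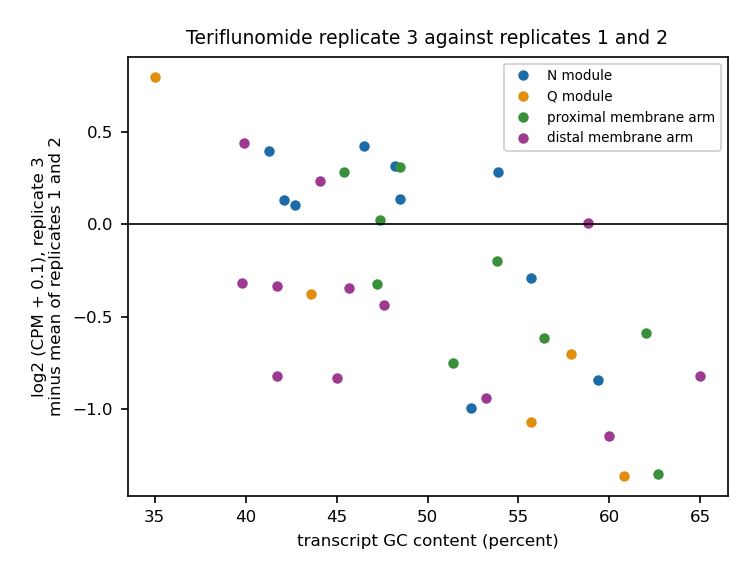
Log2 (CPM + 0.1) of teriflunomide replicate 3 minus the mean of replicates 1 and 2 (vertical) against transcript GC content in percent (horizontal) for the 36 genes, coloured by module. NDUFA5, at 35.0% GC, is at the upper left, and the values fall toward the right, with a Spearman correlation of -0.575.

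Against teriflunomide, the combination called 12 members higher and 10 lower, against 35.2% and 35.8% of all genes, with a median of -0.03 against 0.04 over all genes. NDUFA13 (1.27), NDUFA7 (0.86) and NDUFB11 (0.79) rose most, and NDUFS4 (-2.57), NDUFB3 (-1.34) and NDUFA5 (-1.10) fell most. Replicate 3 of teriflunomide enters this contrast directly: without it 12 were higher and 14 lower, against 36.6% of all genes in each direction, and the median was -0.17.

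The lurbinectedin changes were set against what the genes are like. Members span 2.438 to 133.294 kb, with a median of 13.8 kb against 24.7 kb over nuclear genes tested. Of the 23 members under 20 kb, 11 were higher and 1 lower with lurbinectedin (NDUFB3). Of the 13 longer ones, 4 were higher and 6 lower. Over all genes tested 36% were called higher and 35.7% lower. Shares called among nuclear genes of like span are not given here, only their medians. Nuclear genes of 0 to 5, 5 to 10, 10 to 20 and 20 to 40 kb had medians of 0.69, 0.65, 0.53 and 0.19. Members in these ranges had lower medians, 0.30, 0.34, 0.23 and -0.08. From 40 to 80 kb the members' median was the higher, -0.12 against -0.40. Across members the Spearman correlation of fold change with span was -0.352, and across 16651 nuclear genes -0.572. Long genes were not all low: of the 3 members over 100 kb, NDUFS4 fell by 2.52 and NDUFA10 by 0.41, and NDUFA12 (108.452 kb) was at 0.11. The 3458 nuclear genes over 80 kb had a median of -1.82, against -0.41 for the 3 members. With transcript GC content the correlation was 0.561 across members and 0.293 across nuclear genes; the 12 members of lowest GC content had a median of -0.36 and the 12 of highest 0.59. The combination against lurbinectedin ran the opposite way with GC content (-0.553 across members, -0.347 across nuclear genes). It also ran the opposite way with span (0.347 across members, 0.354 across nuclear genes). These values include combination replicate 2, which itself leaned with GC content, and values without it are not given. The parts of span and GC content in these differences were not tested.

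**Figure D5:**
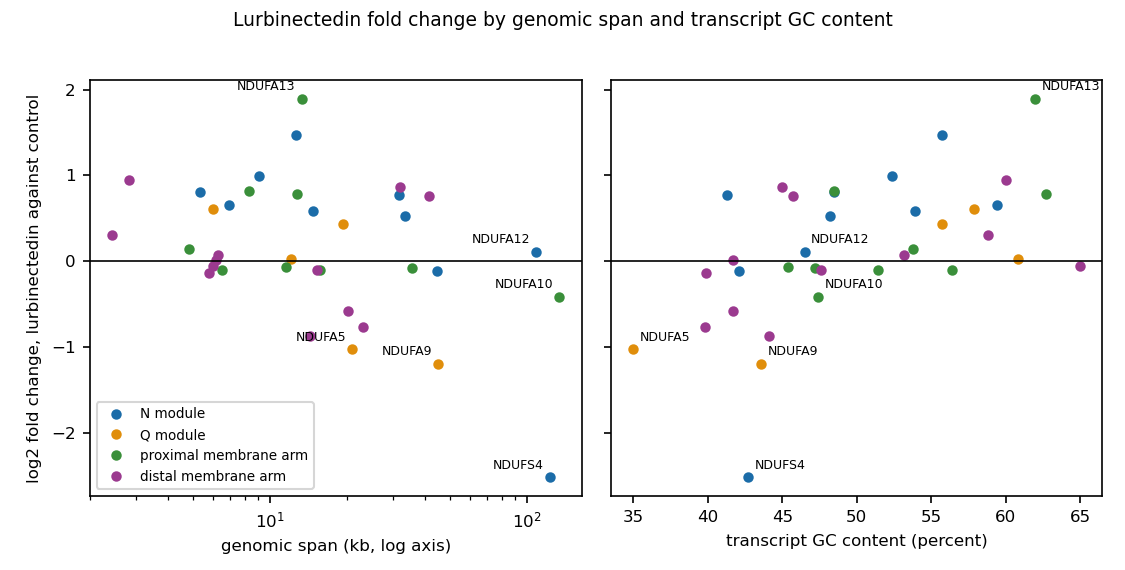
Log2 fold change with lurbinectedin against control (vertical) against genomic span in kb on a log axis (left) and transcript GC content in percent (right) for the 36 genes, coloured by module. NDUFS4 lies alone at -2.52, NDUFA12 and NDUFA10, of like span, lie at 0.11 and -0.41, and values rise with GC content (Spearman correlation 0.561).

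The other genes of complex I and of the respiratory chain were described from fixed lists. Of 19 assembly factors, 6 were higher and 5 lower with lurbinectedin, against 36% and 35.7% of all genes. NUBPL, which delivers iron-sulfur clusters to complex I, stood at 15.7, 15.1 and 15.5 CPM in control, 11.8, 10.3 and 9.44 under teriflunomide, 0.581, 0.469 and 0.472 under lurbinectedin and 0.615, 0.253 and 0.542 under both drugs, a fall of 4.93 with lurbinectedin (adjusted p = 2.94e-10, edgeR). NDUFAF2, which acts late in N module assembly, stood at 17, 16.8 and 15.8 CPM in control and 0.872, 1.21 and 1.42 with lurbinectedin, a fall of 3.8 (adjusted p = 3.19e-08, edgeR). Both are thus lower in every library with lurbinectedin than in any control library. The largest rises were NDUFAF4 and NDUFAF8 (both 0.92). Against lurbinectedin alone all 19 assembly factors had a combination value below 0 (median -0.23), with 0 called.

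Of the regulators of mitochondrial biogenesis, 8 of 9 could be tested. Of these, 3 rose and 3 fell with lurbinectedin, against 36% and 35.7% of all genes. PPARGC1B, a coactivator, stood at 22, 23.6 and 26.3 CPM in control and 1.74, 1.56 and 1.85 with lurbinectedin, a fall of 3.79 (adjusted p = 1.09e-08, edgeR). NRF1, whose letters stand in 10 of the promoter windows, stood at 23.4, 22.4 and 22.9 CPM in control and 7.90, 7.78 and 8.98 with lurbinectedin, a fall of 1.48 (adjusted p = 9.31e-07, edgeR). The related coactivator PPRC1 rose by 0.86 and the receptor ESRRA by 0.75. PPARGC1A was at 0 in 11 of 12 libraries.

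The 7 complex I subunits encoded in the mitochondrial genome moved with the mitochondrial share. With lurbinectedin 4 of 7 were higher (range of log2 fold changes 0.82 to 1.87), against 36% of all genes. With the combination 6 of 7 were higher (1.19 to 2.07), against 34.1%. Combination replicate 2 raises the latter: without it 3 of 7 were called higher (0.61 to 1.5), against 30.9% of all genes. Without teriflunomide replicate 3 as well, 7 of 7 were called higher (0.61 to 1.5), against 37.2%. Against lurbinectedin alone the 7 combination values were all above 0 with combination replicate 2 (median 0.26). Without it all were below 0 (median -0.29), with 0 called in either case. With both libraries left out 3 were called lower, against 10.1% of all genes. With teriflunomide 0 of 7 were called, and 7 (median 1.30) had an unadjusted p under 0.05, against 24.8% of all genes. Replicate 3 had a median of 2.32 over control, and replicates 1 and 2 had 0.25 and 0.20. Of 41 nuclear subunits of complexes II to V, 14 were higher and 7 lower with lurbinectedin, against 36% and 35.7% of all genes, and under both drugs 3 rose and 14 fell, against 34.1% and 34.4%. In the combination against lurbinectedin 40 of 41 were below 0 (median -0.33, 0 called). Among 77 tested mitochondrial ribosomal protein genes, 72 were below 0 in that contrast (median -0.26, 0 called). Without teriflunomide replicate 3, 30 of the 41 and 30 of the 77 were called lower there, against 5.80% of all genes, and 3 of the 19 assembly factors.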

How the data were processed

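The authors deposited 1 table of raw read counts per gene for each of 12 libraries; per the submitters' processing notes reads were handled with fastp 0.23.2, STAR 2.7.9 and featureCounts of Subread on hg38. RNA extraction used an RNeasy Plus Mini column and library preparation a KAPA mRNA HyperPrep kit, per the labels' protocols. The annotation release and the counting options are not given in the sources used here. Of 60649 identifiers, 60463 (99.7%) were matched to a symbol. Counts were filtered with edgeR 4.0.16 (filterByExpr, 16683 genes kept) in R 4.3.3, scaled by TMM and fitted over all 4 groups without a block by the quasi-likelihood test, with Benjamini-Hochberg adjustment over all genes tested. The common biological coefficient of variation was 14.5%. The fit was tested on simulated data. Alternatives were other scalings, other filters, a replicate block, a fit of the compared groups alone, DESeq2 1.42.0 and leaving out each library; leaving out teriflunomide replicate 3 and combination replicate 2 together was chosen after seeing the data. The members and gene lists were chosen with earlier results of these data known. Members were named by a rule: the 6 core subunits, the 3 largest called rises and falls of each contrast, or the 3 smallest p-values where none was called, and for assembly factors and regulators the 2 largest called rises and falls with lurbinectedin; other members named singly were chosen after their values were seen. Spans and exons come from the count tables, GC content from the longest GENCODE 29 transcript (36 of 36 members), shared coding bases from GENCODE 29 coding exons against the tables' exons, and promoters from RefSeq (GRCh38.p14).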

Additional observations from a re-analysis of the deposited data

How the results depend on the processing

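Of 1289 recomputed values of named members, 1218 kept their direction and side of the threshold, 34 were no longer called, 36 became called and 1 reversed: NDUFS7, combination against teriflunomide, was -0.298 (adjusted p = 0.0426, edgeR) without teriflunomide replicate 3, and -0.298 to 0.241 when each library was left out. Scaling by library size alone moved the members' median to -0.141 for lurbinectedin and -0.255 for the combination, both against control. It moved to -0.155 for the combination against lurbinectedin and to 0.019 for the interaction (0.160 over all genes). For the combination against teriflunomide it was -0.135, with 6 members higher, beside 29.3% of all genes. The median over all genes moved to -0.181 for lurbinectedin against control. There the share of calls that were higher went from 50.2% to 39.2%, and for the combination from 49.8% to 41.0%. With no filter the lurbinectedin median was 0.018, and 1 member was lower in the combination against lurbinectedin, beside 0.388% of all genes. A fit of the compared groups alone gave 14 higher for the combination against control, beside 37.1% of all genes. It gave 2 lower against lurbinectedin, beside 0.52%. DESeq2 gave 2 lower for the combination against lurbinectedin (0.977% of all genes) and 1 lower with teriflunomide (4.98%). Without teriflunomide replicate 3 and combination replicate 2, there was 1 lower member with teriflunomide, beside 7.07% of all genes. There were 14 higher for the combination against control (37.2% of all genes), 11 lower against lurbinectedin (10.1%) and 6 lower in the interaction (4.97%). Medians were -0.192 for the combination against teriflunomide and -0.220 for the interaction. The cause of these shifts was not tested.

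Leaving out each library in turn gave 0 to 1 lower members with teriflunomide, 6 to 14 higher for the combination against control, 0 to 11 lower against lurbinectedin and 0 to 2 in the interaction; medians ran from -0.249 to -0.160 for the combination against lurbinectedin, from -0.165 to 0.104 against teriflunomide and from -0.265 to -0.090 for the interaction. The highest counts came without teriflunomide replicate 3, for which the shares of all genes are given above. NDUFA7 was not tested at the filter of 1 CPM. Same-numbered libraries of different groups had correlations of deviations of -0.402 to 0.144. These values include teriflunomide replicate 3 and combination replicate 2, which stand apart from their groups. Whether same-numbered libraries share a culture was not tested. With the replicate block the combination gave 7 higher and 10 lower members against control. The block gave 22 calls with lurbinectedin, 21 for the combination against teriflunomide and 0 elsewhere. Genes counted from 5 to 59 reads (NDUFA7, NDUFV2) are the least precise.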
